A study of Mus musculus with 8 samples.

Results

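The genes described here are 36 enzymes and regulators of central carbon metabolism, out of 53715 rows of the deposited expression table. They were chosen by pathway, as a list of names, with earlier results of these data known: 17 genes of glycolysis (Hk1, Hk2, Hk3, Gpi1, Pfkl, Pfkm, Pfkp, Pfkfb3, Pfkfb4, Aldoa, Tpi1, Gapdh, Pgk1, Pgam1, Eno1, Pkm and Ldha), 3 genes of oxygen sensing and its output (Pdk1, Hif1a and Egln3), 5 genes of the pentose phosphate pathway (G6pdx, Pgls, Pgd, Tkt and Taldo1) and 11 genes of the TCA cycle and its entry (Cs, Idh1, Idh2, Idh3a, Ogdh, Dlat, Pdha1, Sucla2, Fh1, Mdh1 and Mdh2). RNA was sequenced from mouse macrophages labelled Sting-/-, in 8 libraries of polyadenylated RNA, 2 for each of 4 transgene labels. The zfCTT cells carried mouse STING with the C-terminal tail of zebrafish STING, the dCTT cells mouse STING without its tail, the mSTING cells mouse STING, and the no_transgene cells carried none by their transgene label and are titled MSCV2.2, the name of a retroviral vector. STING is the adaptor that turns cyclic dinucleotide signals into interferon and NF-κB responses, and its tail recruits the downstream kinase.

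Cells of all 4 groups, on 10 cm dishes seeded with 4 M cells in medium with 10% serum, were given 10-carboxymethyl-9-acridanone (CMA), which activates mouse STING, at 500 µg/ml for 4 h. No unstimulated library was analysed here, so each comparison is between transgenes under CMA and none shows a response to CMA. The sources used here do not state which promoter drove the transgenes, whether the cells were clones or pools, or whether both libraries of a group stem from separate cultures. The p-values therefore measure library-to-library spread only, and that spread may be technical.

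Glycolysis splits glucose into pyruvate in the cytosol, and lactate dehydrogenase turns pyruvate into lactate. The pentose phosphate pathway branches from it at glucose 6-phosphate and yields NADPH and ribose. The TCA cycle oxidises acetyl-CoA in mitochondria. In macrophages activated through Toll-like receptors, glycolysis is known to rise and the TCA cycle to be interrupted, with HIF-1α, the oxygen-regulated transcription factor that Hif1a encodes, driving many glycolytic genes and Acod1 diverting the TCA intermediate aconitate to itaconate.

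The labels were checked on Tmem173 and a few response genes. Tmem173, the gene of STING, had 14.2 and 20.6 RPKM in zfCTT, 22.7 and 14.98 in dCTT, 10.6 and 22.2 in mSTING, and 3.23 and 2.42 in no_transgene libraries (RPKM, read number per kilobase of the gene and per unit of library size). The no_transgene libraries thus held reads of a gene that their label gives as knocked out, and which part of the gene these came from is not known from per-gene values. Acod1 had 54.3 and 43.5 RPKM in zfCTT, 0.49 and 0.34 in dCTT, 7.48 and 5.47 in mSTING, and 0.19 and 0.24 in no_transgene libraries. Cxcl10, Isg15, Tnf and Nfkbia were likewise highest in both zfCTT libraries, and Ifnb1 was listed at 0 in all dCTT and no_transgene libraries against 18.7 and 5.17 RPKM in zfCTT. Of 10 macrophage markers, 9 reached 1 RPKM in at least 1 library, with Mertk the exception, and no marker of dendritic cells (5 genes), neutrophils (6), lymphocytes (6), fibroblasts (6) or epithelium and endothelium (6) did. The summed macrophage markers were 858 to 1048 RPKM in zfCTT, 1060 to 1089 in dCTT, 831 to 990 in mSTING and 1166 to 1287 in no_transgene libraries. Depth was 20.1 and 34.8 M reads in zfCTT, 55.7 and 171 in dCTT, 88.1 and 88.2 in mSTING, and 27.7 and 101 in no_transgene libraries, so that the zfCTT libraries were among the shallowest. In whole-culture RNA, fewer cells of a type and less RNA per cell cannot be told apart. The part of depth and of the marker levels in the results was not tested.

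None of the 36 genes passed the test for a difference between any 2 groups. The 36 genes together made up 4555 to 5429 RPKM in a library, and 26 of the 36 varied less than 2-fold over all 8 libraries. That count was not made over all genes, so whether it is usual for genes at these levels is not known. All 36 passed the filter of at least 1 RPKM in at least 2 libraries, and each was above 1 RPKM in all 8 libraries. In limma's moderated two-sided test over 13475 genes, with Benjamini-Hochberg adjustment at 0.05, 0 of the 36 passed in each of the 6 comparisons, higher or lower. Among all genes, the percentage that passed was 1.08 for zfCTT against no_transgene (0.928 higher and 0.156 lower), 1.08 for zfCTT against dCTT (0.913 higher and 0.171 lower), 0.119 for zfCTT against mSTING (0.111 higher and 0.00742 lower), and 0 for dCTT against no_transgene, dCTT against mSTING and mSTING against no_transgene. Shares this small over all genes leave little to read from a count of 0 among 36. At an unadjusted p under 0.05 the members numbered 4, 3, 4, 0, 0 and 0 in the same order, where the share of all genes was 13.4%, 12.7%, 11%, 0.267%, 2.49% and 3.47%. A second test on read counts recovered from the RPKM steps (limma-voom) also called none of the 36 in any comparison. A gene that misses the threshold is not thereby shown to be equal between groups, and the intervals below say how large a difference these libraries still allow.

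Intervals were taken on the scale of log2(RPKM + 1), so that 2-fold here means 2-fold in RPKM + 1. For genes of low RPKM the same interval allows a larger fold in RPKM itself. The 95% interval of the difference lay within 2-fold either way for 27 of the 36 genes in zfCTT against no_transgene (75% of the members and 63.6% of all genes), for 26 in zfCTT against dCTT (72.2% and 63.6%) and for 24 in zfCTT against mSTING (66.7% and 62.5%). It did so for 32 genes in dCTT against no_transgene (88.9% and 77.3%), 31 in dCTT against mSTING (86.1% and 73.1%) and 29 in mSTING against no_transgene (80.6% and 68.6%). The median log2 difference of the members, on the scale of log2(RPKM + 1), was 0.06 in zfCTT against no_transgene beside -0.04 over all genes, 0.08 in zfCTT against dCTT beside -0.02, and 0.11 in zfCTT against mSTING beside 0.01. For dCTT against no_transgene it was 0.02 beside -0.01 over all genes, for dCTT against mSTING -0.01 beside 0.03, and for mSTING against no_transgene -0.0047 beside -0.04.

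The libraries of the 2 groups did not overlap for 17 of the 36 genes in zfCTT against no_transgene, 13 of them higher and 4 lower in zfCTT. That is 47.2% of the members, beside 39.6% of all genes (18.8% higher and 20.8% lower). For zfCTT against dCTT the number was 18 (50%, beside 44.8%), with 12 higher and 6 lower in zfCTT (20.1% and 24.7% of all genes), and for zfCTT against mSTING it was 20 (55.6%, beside 49.4%), with 14 higher and 6 lower in zfCTT (24.9% and 24.4% of all genes). It was 4 for dCTT against no_transgene (11.1%, beside 14.4%), 1 higher and 3 lower (7.75% and 6.69% of all genes). It was 9 for dCTT against mSTING (25%, beside 29%), 4 higher and 5 lower (16.2% and 12.8% of all genes), and 11 for mSTING against no_transgene (30.6%, beside 32.3%), 5 higher and 6 lower (15.3% and 17% of all genes). Each of the total shares lay within 10 percentage points of that of all genes. The zfCTT comparisons share their 2 zfCTT libraries, and are given side by side for that reason and not as separate evidence.

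**Figure D1:**
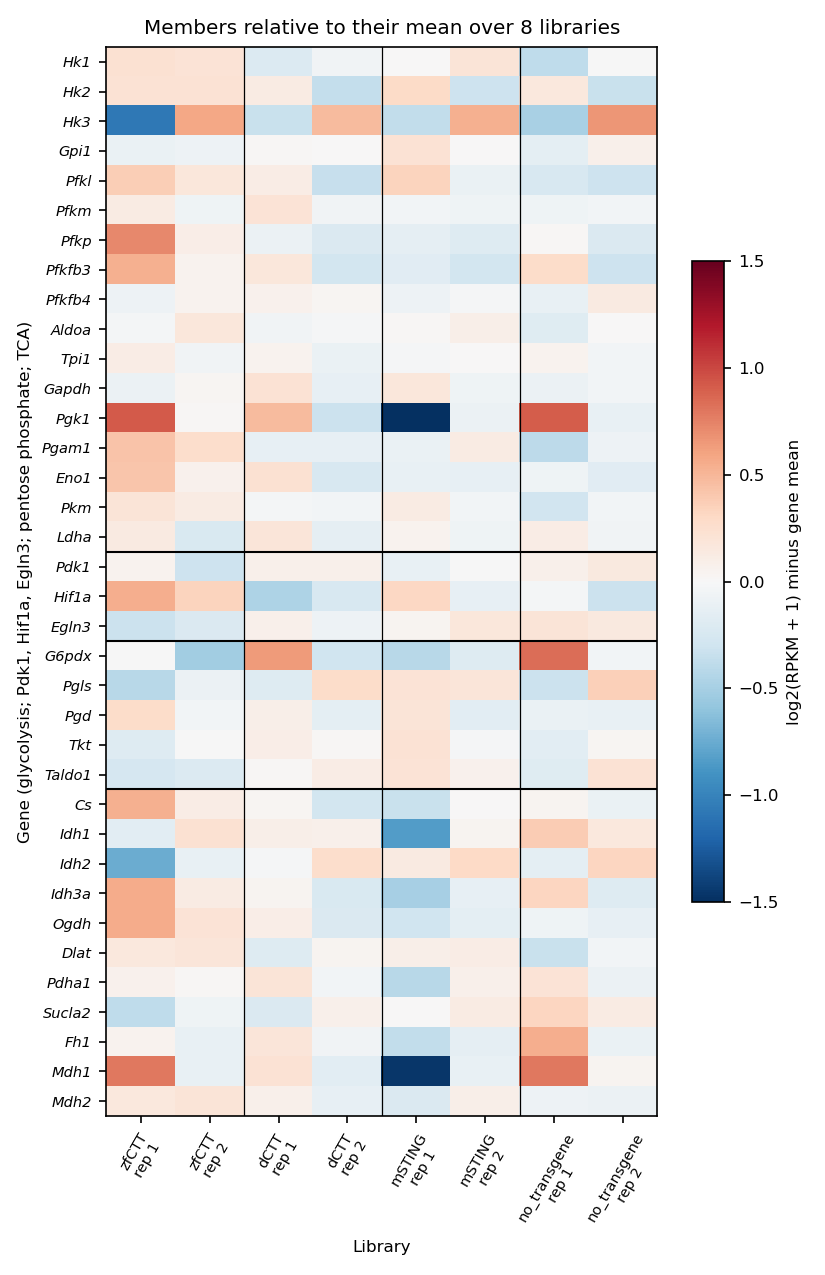
Level of each of the 36 genes in each of the 8 libraries (columns, 2 per group), as log2(RPKM + 1) minus the gene's mean over all libraries; rows run from glycolysis through Pdk1, Hif1a and Egln3 and the pentose phosphate genes to the TCA cycle. Most rows are pale; the darkest cells are single libraries, such as Pgk1 and Mdh1 in mSTING replicate 1 and Hk3 in zfCTT replicate 1.

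**Figure D2:**
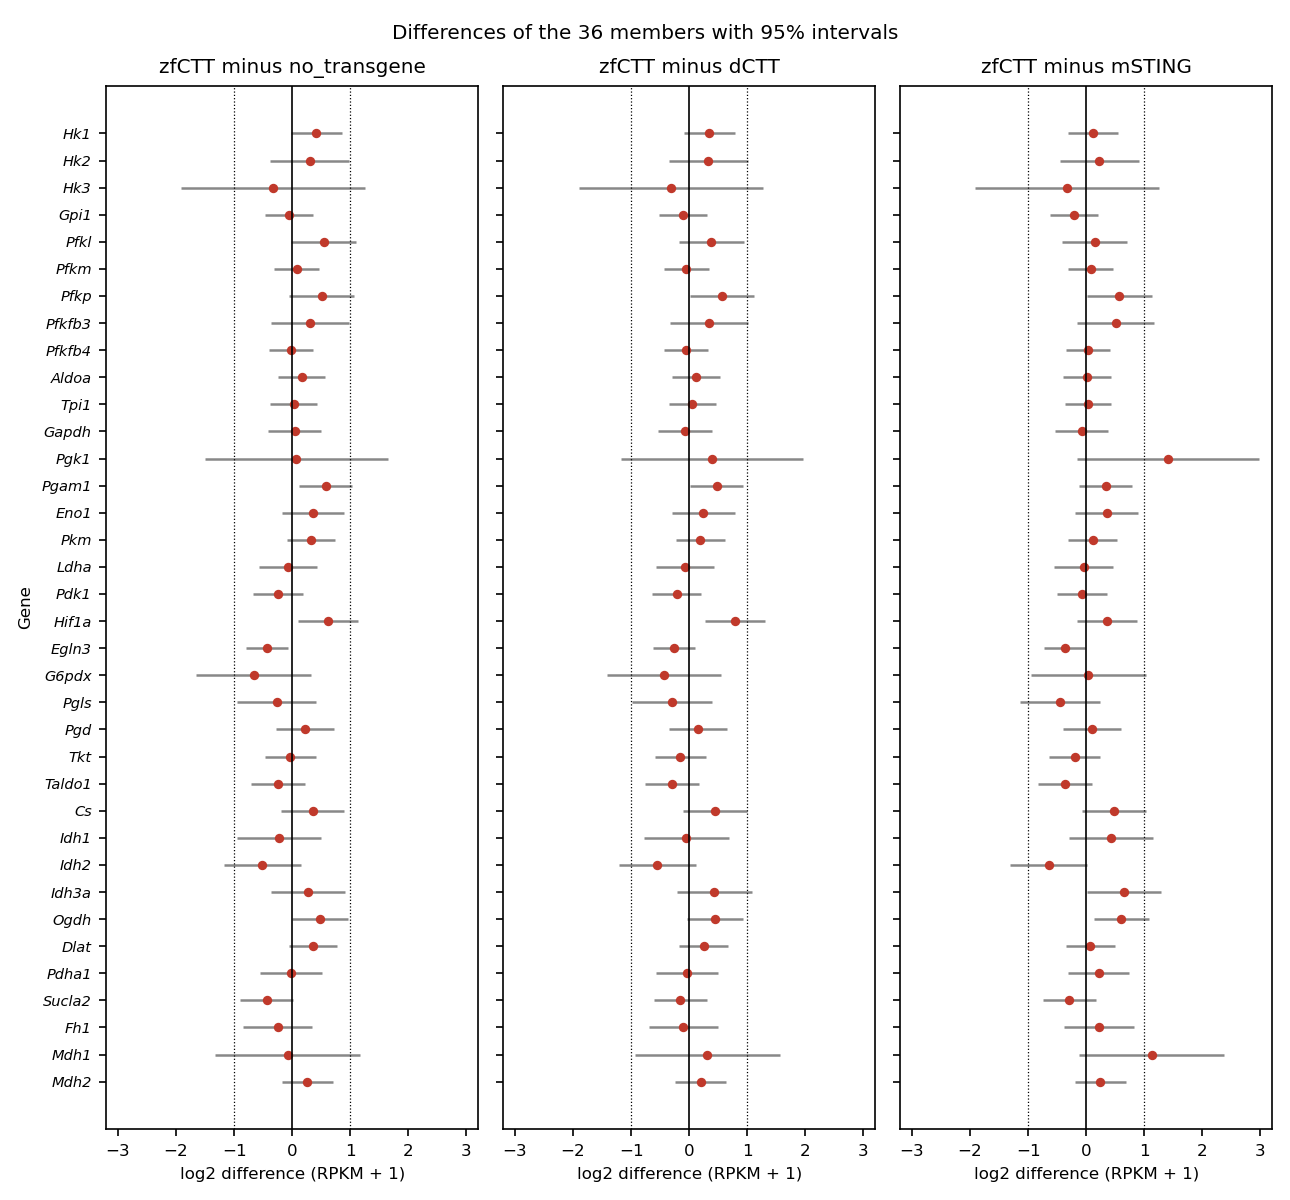
Difference of zfCTT minus no_transgene, dCTT and mSTING for each of the 36 genes, on the log2(RPKM + 1) scale, with 95% intervals from the limma fit over 8 libraries. Dotted lines mark 2-fold in RPKM + 1, which is a larger fold in RPKM for genes of low level. None passed the threshold after adjustment over all 13475 genes, and the widest intervals belong to Hk3, Pgk1 and Mdh1.

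The steps of glycolysis sat at very different levels. Of the 36 genes, 12 averaged at least 100 RPKM over the 8 libraries, 15 between 10 and 100, and 9 under 10. Pkm, which encodes pyruvate kinase of muscle and most proliferating or immune cells, was the highest at a mean of 943 RPKM, followed by Gapdh at 596, Eno1 at 546, Aldoa at 538, Ldha at 481, Pgam1 at 406 and Tpi1 at 213. The commitment enzymes were far lower, with Pfkl at a mean of 29.6 RPKM, Hk2 at 12.4 and Hk1 at 6.72. Across libraries Gapdh overlapped Eno1 and Aldoa, Aldoa overlapped Ldha, and Ldha overlapped Pgam1. Whether these neighbours differ within libraries was not tested. For 8 of the 17 glycolysis genes the annotation holds a near-identical copy, of at least 95% identity over at least 200 aligned bases, and reads could have been split between gene and copy in either direction. Their levels are uncertain: Gapdh has 90 such copies, of which Gm5559 alone had 1148 to 1515 RPKM, and Eno1b had 580 to 927 RPKM beside Eno1. Pgam1-ps2 had 357 to 667 RPKM beside Pgam1. The other 5 are Gpi1, Tpi1, Pgk1, Pkm and Ldha. A second identifier annotated as Aldoa, ENSMUSG00000114515, had 1.19 to 3.49 RPKM and was not counted among the 36.

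The hexokinases, which phosphorylate glucose on entry, were all 3 expressed. Hk1, the general housekeeping form, had 7.98 and 7.83 RPKM in zfCTT, 5.65 and 6.35 in dCTT, 6.70 and 7.76 in mSTING, and 4.89 and 6.59 in no_transgene libraries. Both zfCTT values lay above all others, by 0.41 ± 0.18 (log2 difference ± SE) against no_transgene, with a limma adjusted p of 0.394. Hk2, the inducible form, had 14.3 and 14.3 RPKM in zfCTT, 13.3 and 9.31 in dCTT, 15.1 and 9.63 in mSTING, and 13.8 and 9.50 in no_transgene libraries. Replicate 1 of Hk2 was higher than replicate 2 in dCTT, mSTING and no_transgene, and by more than the groups differed.

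Hk3, the form of myeloid cells, had 3.85 and 14.2 RPKM in zfCTT, 7.05 and 13.1 in dCTT, 6.89 and 13.7 in mSTING, and 6.28 and 15.1 in no_transgene libraries. Here replicate 1 was the lower in every group, and the groups overlapped. The log2 difference of zfCTT minus no_transgene was -0.33 ± 0.66, with a 95% interval of -1.91 to 1.25, so the data do not fix its sign. As shares of the summed hexokinase RPKM in a library, Hk1 made up 19.6% to 30.6%, Hk2 30.4% to 55.2% and Hk3 14.7% to 48.5%. The share of Hk3 was the lower in replicate 1 of every group. Replicate 1 was the higher in all 4 groups for 6 of the 36 genes and the lower in all 4 for 4, beside 14.3% and 17.4% of all genes.

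**Figure D3:**
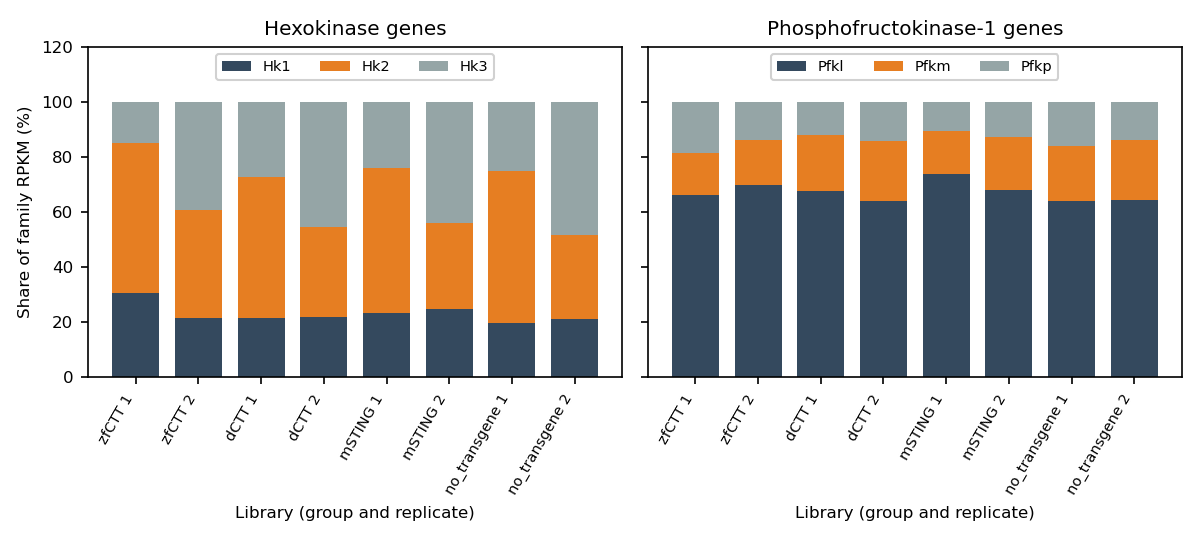
Share of each gene in the summed RPKM of the hexokinase genes (Hk1, Hk2, Hk3) and of the phosphofructokinase-1 genes (Pfkl, Pfkm, Pfkp), in percent, for each of the 8 libraries. Hk3 runs from 14.7% to 48.5% and is the lower in replicate 1 of every group, whereas Pfkl holds 64.0% to 73.9% throughout.

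Phosphofructokinase-1, the committing step, was mostly the liver-type subunit. Pfkl had 37.9 and 32.7 RPKM in zfCTT, 31.6 and 22.8 in dCTT, 37.1 and 27.1 in mSTING, and 24.4 and 23.3 in no_transgene libraries. The zfCTT values lay above those of no_transgene and overlapped those of mSTING, and the log2 difference from no_transgene was 0.55 ± 0.23 (adjusted p = 0.387, limma). Pfkp, the platelet-type subunit, had 10.5 and 6.44 RPKM in zfCTT, 5.56 and 4.96 in dCTT, 5.35 and 5.09 in mSTING, and 6.04 and 4.98 in no_transgene libraries. It was highest in both zfCTT libraries, with a log2 difference of 0.51 ± 0.23 from no_transgene (adjusted p = 0.412, limma). Replicate 1 of zfCTT stood more than 1.5-fold above the other 7 libraries. Such a lone high value in that library was found for 3.73% of all genes. Pitrm1, on the other strand, overlaps 5.6% of the Pfkp exons. Pfkm, the muscle-type subunit, ran from 7.66 to 9.40 RPKM over all libraries. Of the bifunctional enzymes that set the phosphofructokinase activator fructose 2,6-bisphosphate, Pfkfb3 ran from 1.49 to 3.43 RPKM and Pfkfb4 from 1.55 to 1.999.

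In the later steps of the pathway Pgam1, phosphoglycerate mutase, came closest to the threshold of the 17 glycolysis genes. It had 541 and 479 RPKM in zfCTT, 367 and 367 in dCTT, 375 and 435 in mSTING, and 306 and 380 in no_transgene libraries. Both zfCTT values lay above the other 6, and the log2 difference from no_transgene was 0.58 ± 0.19 (95% interval 0.12 to 1.03, adjusted p = 0.275, limma). Its processed copy Pgam1-ps2 differed by 0.63 in the same comparison (adjusted p = 0.320, limma), so the 2 annotations cannot be told apart as the source. Eno1, enolase, had 724 and 563 RPKM in zfCTT, 633 and 458 in dCTT, 501 and 497 in mSTING, and 517 and 478 in no_transgene libraries. The zfCTT libraries lay above those of mSTING and no_transgene and overlapped those of dCTT, and the log2 difference from no_transgene was 0.36 ± 0.23 (adjusted p = 0.557, limma). Pkm had 1070 and 1025 RPKM in zfCTT, 921 and 910 in dCTT, 1026 and 914 in mSTING, and 767 and 909 in no_transgene libraries. Its log2 difference of zfCTT minus no_transgene was 0.33 ± 0.17 (adjusted p = 0.488, limma), and the zfCTT values overlapped those of mSTING. Gm49759, on the same strand with a mean of 131 RPKM, overlaps 15.3% of the Pkm exons.

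Gapdh and Ldha, often taken as readouts of glycolytic induction, were at similar levels in all groups. Gapdh had 558 and 607 RPKM in zfCTT, 689 and 546 in dCTT, 668 and 566 in mSTING, and 557 and 575 in no_transgene libraries. Ldha, the lactate dehydrogenase subunit that favours lactate, had 524 and 409 RPKM in zfCTT, 545 and 436 in dCTT, 496 and 458 in mSTING, and 517 and 460 in no_transgene libraries. All 4 groups overlapped for both genes. The log2 difference of zfCTT minus no_transgene was 0.04 (95% interval -0.42 to 0.50) for Gapdh and -0.08 (-0.58 to 0.43) for Ldha, so a 2-fold change of either lies outside the interval. The copies of both genes leave these values uncertain. Over the 17 glycolysis genes, 13 differences were positive and 4 negative in zfCTT against no_transgene, with a median of 0.16. Over all genes 6105 were positive and 7370 negative, with a median of -0.04. Of the 17, 7 were higher and 0 lower without overlap (41.2%, where 18.8% of all genes were higher and 20.8% lower). The 17 genes summed to 4616 and 4225 RPKM in zfCTT, 4268 and 3737 in dCTT, 4087 and 3973 in mSTING, and 3775 and 3865 in no_transgene libraries. The zfCTT and no_transgene sums did not overlap, and the sums are dominated by the few genes at the highest levels, most of which have copies.

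Pgk1, phosphoglycerate kinase, had 1 library far from the rest. It had 238 and 126 RPKM in zfCTT, 175 and 99.5 in dCTT, 35.7 and 117 in mSTING, and 235 and 115 in no_transgene libraries. mSTING replicate 1 stood more than 1.5-fold below the other 7 libraries, as it did for Mdh1 and Idh1 among the members and for 4.17% of all genes. The log2 difference of mSTING minus no_transgene was -1.33 ± 0.65 for Pgk1 (adjusted p = 0.840, limma). It was -0.49 without mSTING replicate 1 alone, and 0.024 without mSTING replicate 1 and no_transgene replicate 1, a comparison added after these values were seen that leaves 1 library in each group. The copy Pgk1-rs7 had 21.9 and 88.8 RPKM in the same 2 mSTING libraries.

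The oxygen-sensing genes held the smallest adjusted p of the set. Hif1a had 4.84 and 4.04 RPKM in zfCTT, 1.89 and 2.39 in dCTT, 3.94 and 2.66 in mSTING, and 2.91 and 2.197 in no_transgene libraries. Both zfCTT libraries lay above the other 6, and the dCTT libraries lay below those of mSTING. The log2 difference was 0.79 ± 0.22 for zfCTT minus dCTT (95% interval 0.28 to 1.31, adjusted p = 0.194, limma) and 0.62 ± 0.22 for zfCTT minus no_transgene (0.10 to 1.13, adjusted p = 0.295, limma). The ratio of the mean RPKM of zfCTT to that of dCTT was 2.07. An antisense gene, Gm15283, overlaps 5.6% of the Hif1a exons, and without a stated strand setting its reads cannot be told apart there. Gm49321, a protein-coding gene on the same strand with a mean of 2.07 RPKM, overlaps a further 2.5% of the Hif1a exon length.

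Egln3, a prolyl hydroxylase that marks HIF-1α for destruction and is itself a target of it, had its lowest values in zfCTT. It had 2.96 and 3.26 RPKM in zfCTT, 4.21 and 3.68 in dCTT, 4.09 and 4.54 in mSTING, and 4.63 and 4.47 in no_transgene libraries. Both zfCTT libraries lay below the other 6, and the log2 difference of zfCTT minus no_transgene was -0.43 ± 0.15 (95% interval -0.79 to -0.08, adjusted p = 0.289, limma). Pdk1, the kinase that restrains pyruvate dehydrogenase, ran from 11.4 to 16.1 RPKM over the 8 libraries. The RNA level of Hif1a says nothing of HIF-1α protein, which is set mainly by its destruction.

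Promoter windows from 250 bases before to 50 after the annotated start were read from RefSeq on GRCm38.p6 for 35 of the 36 genes. The core of the HIF response element, ACGTG or GCGTG on either strand, was found in 30 of the 35 (85.7%), beside 46.7% of the 27025 genes with a window. Some genes have several windows, and a gene was counted if any of them held the core. By window, 79.6% of the 54 member windows held it, beside 43.8% of all 32851 windows. The genes without it in any window were Cs, Dlat, Gpi1, Sucla2 and Tpi1. The E-box CACGTG, which holds the core ACGTG, was found in 5 (14.3%, beside 8.09%): Hif1a, Ldha, Ogdh, Pfkfb3 and Pfkm. The genes used for comparison include those that failed the expression filter. They were not matched to the members for expression or base composition, and both forms of the core contain CG. The higher share among the members can therefore not be read as a trait tied to HIF. A match is a description of letters and not a binding site. The windows of the 3 members with the smallest adjusted p in zfCTT against no_transgene, and of the transporter gene Slc2a6 described below, are shown 5′ to 3′ on the strand of the gene, with the core in capitals (on the opposite strand it reads CACGT or CACGC). They lie at chr19:41911621-41911920 (plus strand) for Pgam1, chr12:73907617-73907916 (plus) for Hif1a, chr12:54203825-54204124 (minus) for Egln3 and chr2:27027949-27028248 (minus) for Slc2a6.
Pgam1 promoter: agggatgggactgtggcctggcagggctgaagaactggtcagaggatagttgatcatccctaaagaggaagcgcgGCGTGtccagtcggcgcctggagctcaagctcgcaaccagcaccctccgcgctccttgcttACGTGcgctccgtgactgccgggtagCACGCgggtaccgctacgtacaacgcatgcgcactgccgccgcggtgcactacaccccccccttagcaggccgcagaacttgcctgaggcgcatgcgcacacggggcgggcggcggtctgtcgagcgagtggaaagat
Hif1a promoter: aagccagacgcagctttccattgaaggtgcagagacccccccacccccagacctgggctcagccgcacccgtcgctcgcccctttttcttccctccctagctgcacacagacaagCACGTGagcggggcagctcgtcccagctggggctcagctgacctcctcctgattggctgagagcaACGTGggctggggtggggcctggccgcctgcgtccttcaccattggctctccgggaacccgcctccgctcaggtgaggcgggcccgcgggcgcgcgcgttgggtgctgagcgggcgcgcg
Egln3 promoter: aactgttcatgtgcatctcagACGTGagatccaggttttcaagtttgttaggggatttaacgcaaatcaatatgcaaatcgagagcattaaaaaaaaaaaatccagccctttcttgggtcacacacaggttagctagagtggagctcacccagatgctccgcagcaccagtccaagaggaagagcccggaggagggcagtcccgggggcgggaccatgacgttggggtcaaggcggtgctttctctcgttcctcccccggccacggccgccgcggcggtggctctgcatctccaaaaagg
Slc2a6 promoter: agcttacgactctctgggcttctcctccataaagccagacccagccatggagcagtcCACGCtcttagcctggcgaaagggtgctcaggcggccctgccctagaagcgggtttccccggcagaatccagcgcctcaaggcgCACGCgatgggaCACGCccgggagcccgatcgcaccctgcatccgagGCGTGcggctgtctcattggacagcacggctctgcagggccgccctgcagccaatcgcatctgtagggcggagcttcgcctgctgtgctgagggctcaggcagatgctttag
Pgam1 and Hif1a each hold 3 matches, of which a pair in Hif1a overlap on the 2 strands of its E-box, Egln3 holds 1 far from the start, and Slc2a6 holds 4. Whether the core has a part in any difference was not tested.

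The 5 pentose phosphate genes summed to 376 and 379 RPKM in zfCTT, 440 and 421 in dCTT, 461 and 412 in mSTING, and 398 and 443 in no_transgene libraries. Both zfCTT sums were below the other 6 on the RPKM scale. The RPKM of all genes summed to 732562 and 859304 in zfCTT, and to between 799768 and 917533 in the other libraries. The order of the pentose sums need therefore not hold for shares of that total. No gene of the 5 passed the test. G6pdx, the NADPH-yielding first enzyme, had 37.0 and 25.5 RPKM in zfCTT, 58.4 and 30.04 in dCTT, 27.5 and 32.4 in mSTING, and 67.1 and 36.2 in no_transgene libraries. Replicate 1 was the higher in zfCTT, dCTT and no_transgene and the lower in mSTING, and the zfCTT values overlapped those of each other group. The log2 difference of zfCTT minus no_transgene was -0.67 ± 0.41 (95% interval -1.65 to 0.32, adjusted p = 0.550, limma), which leaves a fall beyond 2-fold and a small rise both within the interval. Ikbkg, the NF-κB regulator NEMO, overlaps 13.6% of the G6pdx exons on the other strand. Pgd, which yields the second NADPH, ran from 58.6 to 79.8 RPKM and Pgls, the lactonase between them, from 42.1 to 72.4. Fam129c, on the same strand with a mean of 0.41 RPKM, overlaps 20.6% of the Pgls exons. The carbon-shuffling enzymes Tkt and Taldo1 ran from 118.1 to 157 and from 98.9 to 137 RPKM. Both zfCTT values of Taldo1 were below the other 6 on the RPKM scale, with the same limit as for the sums. Of the 5 genes, 1 difference was positive and 4 were negative in zfCTT against no_transgene, with a median of -0.24. Over all genes the numbers were 6105 and 7370, with a median of -0.04.

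At the entry to the TCA cycle, Dlat, the acetyltransferase of pyruvate dehydrogenase, had 13.0 and 13.1 RPKM in zfCTT, 9.91 and 11.8 in dCTT, 12.3 and 12.5 in mSTING, and 8.89 and 11.1 in no_transgene libraries. Both zfCTT values lay above all others, with a log2 difference from no_transgene of 0.36 ± 0.17 (adjusted p = 0.445, limma). Cs, citrate synthase, had 51.6 and 38.3 RPKM in zfCTT, 36.4 and 29.1 in dCTT, 27.9 and 35.7 in mSTING, and 36.4 and 33.0 in no_transgene libraries. Its zfCTT values also lay above the other 6, by 0.35 ± 0.23 against no_transgene (adjusted p = 0.573, limma). Ogdh, the 2-oxoglutarate dehydrogenase subunit, had 26.1 and 20.3 RPKM in zfCTT, 18.7 and 14.8 in dCTT, 14.0 and 15.6 in mSTING, and 16.6 and 15.9 in no_transgene libraries. It too was highest in both zfCTT libraries, with a log2 difference of 0.61 ± 0.20 from mSTING (adjusted p = 0.416, limma) and 0.48 ± 0.20 from no_transgene (adjusted p = 0.371, limma).

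The isocitrate dehydrogenases differ by compartment and cofactor. Idh1, the cytosolic NADP form, had 2.59 and 3.69 RPKM in zfCTT, 3.25 and 3.23 in dCTT, 1.24 and 3.12 in mSTING, and 4.22 and 3.46 in no_transgene libraries. The lowest value was again that of mSTING replicate 1. The fewest reads behind any value of a member were the 144 of Idh1 in zfCTT replicate 1. The log2 difference of mSTING minus no_transgene was -0.67 ± 0.30 (adjusted p = 0.840, limma). Idh2, the mitochondrial NADP form, held 95% to 98.7% of the summed RPKM of Idh1 and Idh2 and ran from 52.7 to 111 RPKM, lowest in zfCTT replicate 1. Idh3a, a subunit of the NAD form of the cycle itself, ran from 10.6 to 23.3 RPKM.

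Sucla2, the ADP-forming succinyl-CoA synthetase subunit, had 2.59 and 3.44 RPKM in zfCTT, 3.02 and 3.90 in dCTT, 3.69 and 4.09 in mSTING, and 4.82 and 4.05 in no_transgene libraries. The zfCTT values lay below those of mSTING and no_transgene and overlapped those of dCTT, and the log2 difference from no_transgene was -0.44 ± 0.19 (adjusted p = 0.388, limma). Pdha1, the catalytic subunit of pyruvate dehydrogenase, and Fh1, fumarase, ran from 13.1 to 20.7 and from 15.3 to 29.6 RPKM. Of the malate dehydrogenases, the mitochondrial Mdh2 held 82.8% to 95.9% of the pair's RPKM and ran from 132 to 176 RPKM, while the cytosolic Mdh1 ran from 5.605 RPKM in mSTING replicate 1 to 30.5 in zfCTT replicate 1. Over the 11 TCA genes, 5 differences were positive and 6 negative in zfCTT against no_transgene (median -0.02), beside 6105 and 7370 of all genes. In zfCTT against mSTING 9 were positive and 2 negative (median 0.25), beside 6965 and 6510 of all genes. That comparison contains the low mSTING replicate 1 and also zfCTT replicate 1. The latter stood more than 1.5-fold below the other 7 libraries for 6.01% of all genes, with Hk3 and Idh2 among the members.

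Around the 36 genes, 5 further lists of the same pathways were examined. Of the transporters that carry glucose and lactate, 10 of 12 passed the filter. Of these, 1 passed the test as higher in zfCTT, against no_transgene and against dCTT, where 1.08% of all genes passed in each comparison. Slc2a6, a hexose carrier of the GLUT family that sits on lysosomes, had 28.2 and 30.5 RPKM in zfCTT, 8.63 and 9.06 in dCTT, 10.5 and 8.48 in mSTING, and 5.73 and 8.12 in no_transgene libraries. Both zfCTT libraries lay far above the other 6, with a log2 difference of 1.95 ± 0.20 from no_transgene (adjusted p = 0.0196, limma) and 1.62 ± 0.20 from dCTT (adjusted p = 0.0261, limma). Against mSTING the difference was 1.54 ± 0.20 and did not pass (adjusted p = 0.0793, limma), though it passed in 2 of 21 other settings, 1 of them the fit of protein-coding genes only (0.0205). The call against no_transgene held in 12 of 21 other settings, with differences of 1.73 to 2.17 and adjusted p from 0.000784 to 0.174, and it was lost without any 1 of the zfCTT, dCTT or no_transgene libraries. The call against dCTT held in 12 of 21 as well, with adjusted p from 0.0016 to 0.237 (limma).

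Slc16a3, the lactate exporter MCT4, had 51.3 and 32.0 RPKM in zfCTT, 19.0 and 10.6 in dCTT, 16.7 and 17.8 in mSTING, and 12.1 and 10.0 in no_transgene libraries. It was highest in both zfCTT libraries and did not pass against no_transgene, at 1.79 ± 0.33 (adjusted p = 0.0638, limma). It passed in 3 of 21 other settings, 1 of them the fit of protein-coding genes only (adjusted p = 0.0212, limma), in which it also passed against dCTT (0.0474). Slc2a1, the main glucose importer GLUT1, had 52.0 and 39.6 RPKM in zfCTT, 33.6 and 27.5 in dCTT, 36.7 and 32.9 in mSTING, and 27.2 and 29.2 in no_transgene libraries. Its difference of 0.67 ± 0.20 from no_transgene did not pass (adjusted p = 0.223, limma). It is named beyond the rule for pathway genes, after its values were seen, as the main importer.

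**Figure D4:**
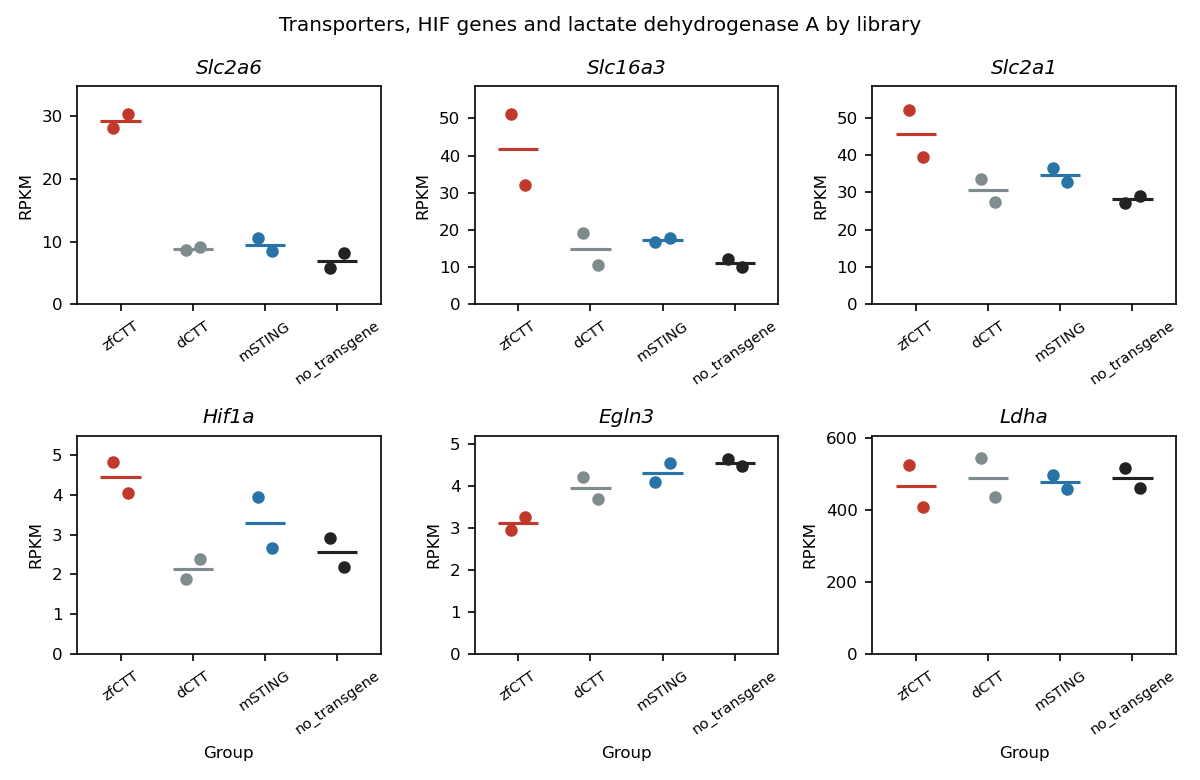
RPKM in each of the 8 libraries (points) with the mean of the 2 libraries of a group (bar) for Slc2a6, Slc16a3, Slc2a1, Hif1a, Egln3 and Ldha, each axis starting at 0. Slc2a6 has 28.2 and 30.5 RPKM in zfCTT and at most 10.5 elsewhere, while the 4 groups overlap for Ldha.

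In the other 4 lists no gene passed the threshold in any comparison, though 4 of the named genes did so in zfCTT against no_transgene under other settings. Pgm1 and Pck2 passed in 1 setting each. Pdk2 passed in 3 and Gapdhs in 1, but both met the filter only through groups other than zfCTT, where they were higher. The passes of Pdk2 and Gapdhs are therefore no support for a difference. Of the other glycolysis, glycogen and sugar genes 15 of 29 were tested, and Pgm1, phosphoglucomutase, came closest at 17.1 and 12.1 RPKM in zfCTT against 8.69 and 7.74 in no_transgene libraries (adjusted p = 0.182, limma). Gapdhs, the sperm form of Gapdh, stayed at or under 1.04 RPKM in every library. Of the other pentose phosphate genes 7 of 10 were tested, with Rbks (ribokinase) and Rpia (ribose 5-phosphate isomerase) nearest, at adjusted p of 0.425 and 0.557 in zfCTT against no_transgene (limma).

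Of the other TCA and pyruvate dehydrogenase genes 33 of 37 were tested. Pdk2, a second pyruvate dehydrogenase kinase, had 0.35 and 0.27 RPKM in zfCTT, 1.01 and 1.28 in dCTT, 0.35 and 0.46 in mSTING, and 1.31 and 1.88 in no_transgene libraries. The zfCTT and mSTING libraries lay below those of dCTT and no_transgene. Pdk2 entered the test only through the dCTT and no_transgene libraries, where it reached 1 RPKM, and its log2 difference of zfCTT minus no_transgene ran from -0.82 to -2.46 over the settings, so its values are given as a description. Pck2, mitochondrial phosphoenolpyruvate carboxykinase, had 6.05 and 5.66 RPKM in zfCTT, against 10.2 and 13.8 in no_transgene libraries (adjusted p = 0.144, limma).

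Of HIF regulators and targets 20 of 26 were tested, with 7 positive and 13 negative differences in zfCTT against no_transgene and a median of -0.23. Over all genes 6105 differences were positive and 7370 negative, with a median of -0.04. The list mixes regulators with targets, and its differences ran from -0.87 for Vegfa to 0.68 for Ak4. Vegfa, the vascular growth factor and a standard HIF target, had 5.16 and 4.53 RPKM in zfCTT, 7.76 and 12.2 in dCTT, 7.85 and 11.7 in mSTING, and 6.86 and 13.4 in no_transgene libraries. Its zfCTT libraries lay below the other 6, with an adjusted p of 0.363 against no_transgene (limma). Gys1, glycogen synthase, had 4.91 and 4.87 RPKM in zfCTT, against 6.54 and 7.05 in no_transgene libraries (adjusted p = 0.328, limma). None of these genes passed the threshold, nor did Hif1a.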

How the data were processed

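RNA of 8 libraries was compared, 2 per transgene label, with groups taken from the transgene label and replicate numbers from the titles. The deposited values are RPKM that the authors computed per gene, and they are not counts. Per the submitters' processing notes, cutadapt 1.16, HISAT2 2.1.0, GRCm38 and mm10 were used. The sources used here do not give the counting tool or strand setting, so exons shared with another gene, and near-identical copies, leave values uncertain. Symbols were matched for 53620 of 53715 identifiers. The RPKM steps gave the depth and whole reads within 0.05 for 95.0% to 95.6% of nonzero values.

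Genes with at least 1 RPKM in at least 2 libraries (13475) were fitted together, as log2(RPKM + 1), with a mean per group in limma 3.58.1 (R 4.3.3). This scale understates changes of low genes. The test was moderated and two-sided, with a trend on intensity and Benjamini-Hochberg adjustment per contrast at 0.05. Errors of log2 differences are SE from that fit. The script was tested on simulated data. Members and gene lists were chosen with earlier results of these data known. Values in every library are given for 10 fixed members and for the 12 members with the largest non-overlapping difference in zfCTT against no_transgene, and the rest by ranges, except Pgk1, chosen after its values were seen. Of each pathway list, genes past the threshold and the 2 with the smallest adjusted p are named. Other pseudocounts, filters, scalings, gene types, library subsets and a replicate block were tried. Promoters are RefSeq windows of 300 bases on GRCm38.p6.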

Additional observations from a re-analysis of the deposited data

How the results depend on the processing

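The number of the 36 genes past the threshold was 0 in 125 of 126 other settings over the 6 comparisons; it was 1 (Hif1a, adjusted p = 0.0314 with limma) for zfCTT against dCTT with the replicate block and protein-coding genes only, a setting added after seeing the data. The median of the members moved by more than the spread between replicates in 3 of 126. Without 1 library, Hk3 in zfCTT against no_transgene (-0.33) was 0.49 without zfCTT replicate 1 and 0.24 without no_transgene replicate 2 (range -1.16 to 0.49), Gapdh (0.04) was -0.019 without zfCTT replicate 2 (range -0.019 to 0.10), and Ldha (-0.08) was 0.10 without zfCTT replicate 2 and 0.01 without no_transgene replicate 1, also with mSTING replicate 1 left out too (range -0.26 to 0.10). Pgk1 in mSTING against no_transgene (-1.33) was 0.024 without replicate 1 of both groups and -2.17 to -0.49 without 1 library.

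The count over all genes was far less stable. For zfCTT against no_transgene (146) it was 34 with no filter, 64 with a mean of at least 5 RPKM, 354 with protein-coding genes only, 53 with limma-voom, 432 with the replicate block, 34 with only the 2 groups, 9 without replicate 1 of mSTING and of no_transgene, 937 with block and protein-coding genes, and 2 to 144 without 1 library. For zfCTT against dCTT (146) the same settings gave 28, 61, 348, 169, 409, 65, 65, 866, and 1 to 148. For zfCTT against mSTING (16) they gave 29, 2, 63, 8, 44, 0, 0, 424, and 0 to 5, and 0 with a pseudocount of 0.1. For mSTING against no_transgene (0) the count was 11 and 1 with pseudocounts of 0.1 and 0.5, 12 with no filter, 5 rescaled to TPM, 6 with protein-coding genes, 32 with block and protein-coding genes, and 0 to 16 without 1 library. For dCTT against mSTING (0) it was 3 with a pseudocount of 0.1, 14 with no filter, 6 with protein-coding genes, 21 with block and protein-coding genes, and 0 to 10 without 1 library. For dCTT against no_transgene it was 0 throughout. The cause was not tested.

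The replicate numbers share no stated batch. Deviations of same-numbered libraries correlated at 0.26 to 0.76 in 4 of the 6 pairs of groups (0.43 for zfCTT with no_transgene) and at 0.03 and 0.04 for mSTING with dCTT and with no_transgene. All were positive, a hint from the data and not the design, and the main fit had no replicate block. With the replicate block 0 of the 36 genes passed in each comparison. Of the pathway genes in zfCTT against no_transgene, the block brought Slc16a3 (adjusted p = 0.0285, limma) past the threshold. Pdk2 and Gapdhs, which met the filter only through groups other than zfCTT, are left out of this account. Block and protein-coding genes only together did so for Slc16a3 (0.00221), Pgm1 (0.0217) and Pck2 (0.0321). Slc16a3 passed against dCTT with the block (0.0444) and with both (0.00549), and with both against mSTING (0.0281), as did Slc2a6 (0.00547). Depth, from 20.1 M reads, and 2 libraries a group limit the precision to the intervals given.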

Other observations

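Outside the lists, the mitochondrially encoded transcripts, which are made by the organelle that houses the TCA enzymes, summed to 899 and 897 RPKM in zfCTT, 2425 and 2512 in dCTT, 2305 and 1736 in mSTING, and 2128 and 1749 in no_transgene libraries. Both zfCTT libraries lay lowest. Its relation to the nuclear-encoded TCA genes was not tested.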
